A study of Mus musculus with 10 samples.

Results

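The genes described here encode the presynaptic machinery that stores, primes, fuses and retrieves synaptic vesicles, together with the synaptotagmin family. The members were 49 named release genes, all of which were found, and the 13 synaptotagmins with a numbered symbol in the count table, so that 62 of the 14300 genes in the table were examined. They were arranged by role into SNARE proteins, SNARE disassembly factors, SNARE regulators, priming factors, active zone scaffolds, vesicle proteins, calcium sensors and vesicle endocytosis proteins. RNA came from C57BL/6J mouse embryos carrying Grem1creERT and Rosa26LSLTdtomato, a reporter pair in which a tamoxifen-dependent Cre under Grem1 control permanently turns on the red fluorescent protein TdTomato. Grem1 encodes a BMP antagonist, and TdTomato marks both the cells that were using its regulatory DNA at induction and their descendants. Pregnant dams received tamoxifen and tissue was taken at 14.5 days post coitum (dpc), 24 h later. The study's methods describe dissection of the dorsal telencephalon with the meninges removed, whereas the sample labels say only brain. Live cells were sorted into a TdTomato+ and a TdTomato- population from each of 5 mice, numbered 2 to 6, which gave 10 mRNA-seq libraries and 5 pairs. Both populations therefore shared genotype, tamoxifen exposure, age and dissection, and TdTomato- cells are every live cell that was not labelled, not a defined cell type. The sources used here do not say whether a number stands for 1 embryo or for several embryos pooled.

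A synaptic vesicle fuses with the plasma membrane when the vesicle SNARE synaptobrevin zips together with the target membrane SNAREs syntaxin and SNAP-25. Complexins and tomosyns regulate that assembly, Munc13 and CAPS proteins make docked vesicles ready to fuse, RIM, ELKS, liprin-alpha, Bassoon and Piccolo scaffold the release site, and synaptotagmins couple fusion to calcium. In the embryonic cortex newly born neurons start to make these proteins while axons are still growing and before most synapses have formed, and progenitors make far fewer of them.

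A promoter sequence was at hand for 50 of the 62 members, from RefSeq on the mouse GRCm38.p6 build, covering 250 bases before to 50 bases after the annotated transcription start. Each was searched on both strands for the cAMP response element, TGACGTCA, and for the left part (CAGCACC) and the right part (GGACAG) of the RE1 site that is bound by REST, a repressor of neuronal genes. The cAMP response element was present in 3 of 50 member promoters (6%) and in 2.03% of all 27025 promoters. The 3 promoters are printed because the element lies in each of them. Their genes encode a SNARE disassembly adaptor, the endocytosis protein endophilin A1 and the vesicle-tethering protein synapsin 1. All 3 genes were higher in TdTomato+ cells, as were 50 of all 62 members. Capitals mark the element, and each sequence runs 5′ to 3′ on the strand of its gene.
Napa: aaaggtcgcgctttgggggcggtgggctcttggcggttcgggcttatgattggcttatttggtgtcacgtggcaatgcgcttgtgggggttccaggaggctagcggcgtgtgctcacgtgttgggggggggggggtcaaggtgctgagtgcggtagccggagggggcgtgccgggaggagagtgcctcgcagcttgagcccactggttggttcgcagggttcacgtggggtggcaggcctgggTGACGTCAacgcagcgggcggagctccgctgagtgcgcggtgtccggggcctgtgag
Sh3gl2: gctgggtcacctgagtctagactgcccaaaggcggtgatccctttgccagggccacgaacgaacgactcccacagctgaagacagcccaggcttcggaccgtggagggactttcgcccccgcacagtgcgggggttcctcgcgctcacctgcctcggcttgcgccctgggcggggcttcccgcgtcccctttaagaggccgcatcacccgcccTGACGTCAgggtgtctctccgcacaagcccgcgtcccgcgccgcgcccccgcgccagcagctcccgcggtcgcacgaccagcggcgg
Syn1: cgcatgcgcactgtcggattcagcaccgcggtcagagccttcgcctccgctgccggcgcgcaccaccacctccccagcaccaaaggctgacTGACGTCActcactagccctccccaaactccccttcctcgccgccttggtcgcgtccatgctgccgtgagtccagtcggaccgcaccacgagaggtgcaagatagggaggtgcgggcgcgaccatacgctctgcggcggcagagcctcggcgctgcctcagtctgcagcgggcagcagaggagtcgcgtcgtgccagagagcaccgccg
Distances are counted from the RefSeq start, which for these 3 genes lies downstream of the outermost start in the GENCODE annotation used for the gene coordinates, so that the elements of Napa and Sh3gl2 fall inside the GENCODE gene and that of Syn1 falls before it. The Napa sequence is chr7:16098330-16098629 on the plus strand, and its element begins 7 bases before the RefSeq start. The Napa sequence also holds 1 copy of CAGCACC, on the opposite strand. The Sh3gl2 sequence is chr4:85205206-85205505 on the plus strand, with the element beginning 37 bases before the RefSeq start. The Syn1 sequence is chrX:20920869-20921168 on the minus strand, where the element begins 159 bases before the RefSeq start and CAGCACC occurs in 2 copies, the first of them 230 bases before the start. CAGCACC was found in 7 of 50 member promoters (14%) against 8.14% of all promoters, and GGACAG in 11 of 50 (22%) against 24.7%. Such matches describe letters in a window and are not evidence that a factor binds there.

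The sort was first checked on the gene that marks it. Grem1 rose from 6.11 ± 0.731 to 63.3 ± 3.10 CPM (read counts scaled to library size, mean ± SD, n = 5 in each population), a log2 fold change (log2FC) of 3.37 with an adjusted p of 1.78e-09. Libraries held 23429034 to 27286180 reads counted in genes. The summed CPM of 10 inhibitory neuron markers was 1775 to 2296 in TdTomato- libraries and 73.8 to 124 in TdTomato+ libraries, and that of 10 radial glia and progenitor markers was 2217 to 2754 and 144 to 209, with every gene of both lists lower in TdTomato+ cells. Of 7 excitatory neuron markers 6 were higher. Because both populations are mixtures measured in bulk, fewer cells of a type and less RNA per cell cannot be told apart, and the part of cell composition in the changes given here was not tested.

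The release genes as a group were higher in TdTomato+ cells. Summed over the 62 members, the level was 4141 to 4501 CPM in the 5 TdTomato- libraries and 8133 to 9011 CPM in the 5 TdTomato+ libraries. Significantly more RNA in TdTomato+ cells was measured for 50 members and less for 11, beside 37.9% of all genes higher and 39.4% lower at the same adjusted p of 0.05 (edgeR quasi-likelihood test, paired by mouse, adjusted over all 14300 genes). Syt17 was the single member that did not pass the test. The median log2FC of the members was 1.17, and that of all genes was -0.01. With a log2FC of 2 or more besides, 4 members were higher (Sv2b, Ppfia4, Unc13c and Sh3gl2; 3.2% of all genes) and 3 were lower (Syt13, Cadps2 and Synpr; 9.74% of all genes). The TdTomato+ and TdTomato- libraries did not overlap at all for 57 members, 47 of them higher and 10 lower, where 61.6% of all genes were without overlap in either direction.

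**Figure D1:**
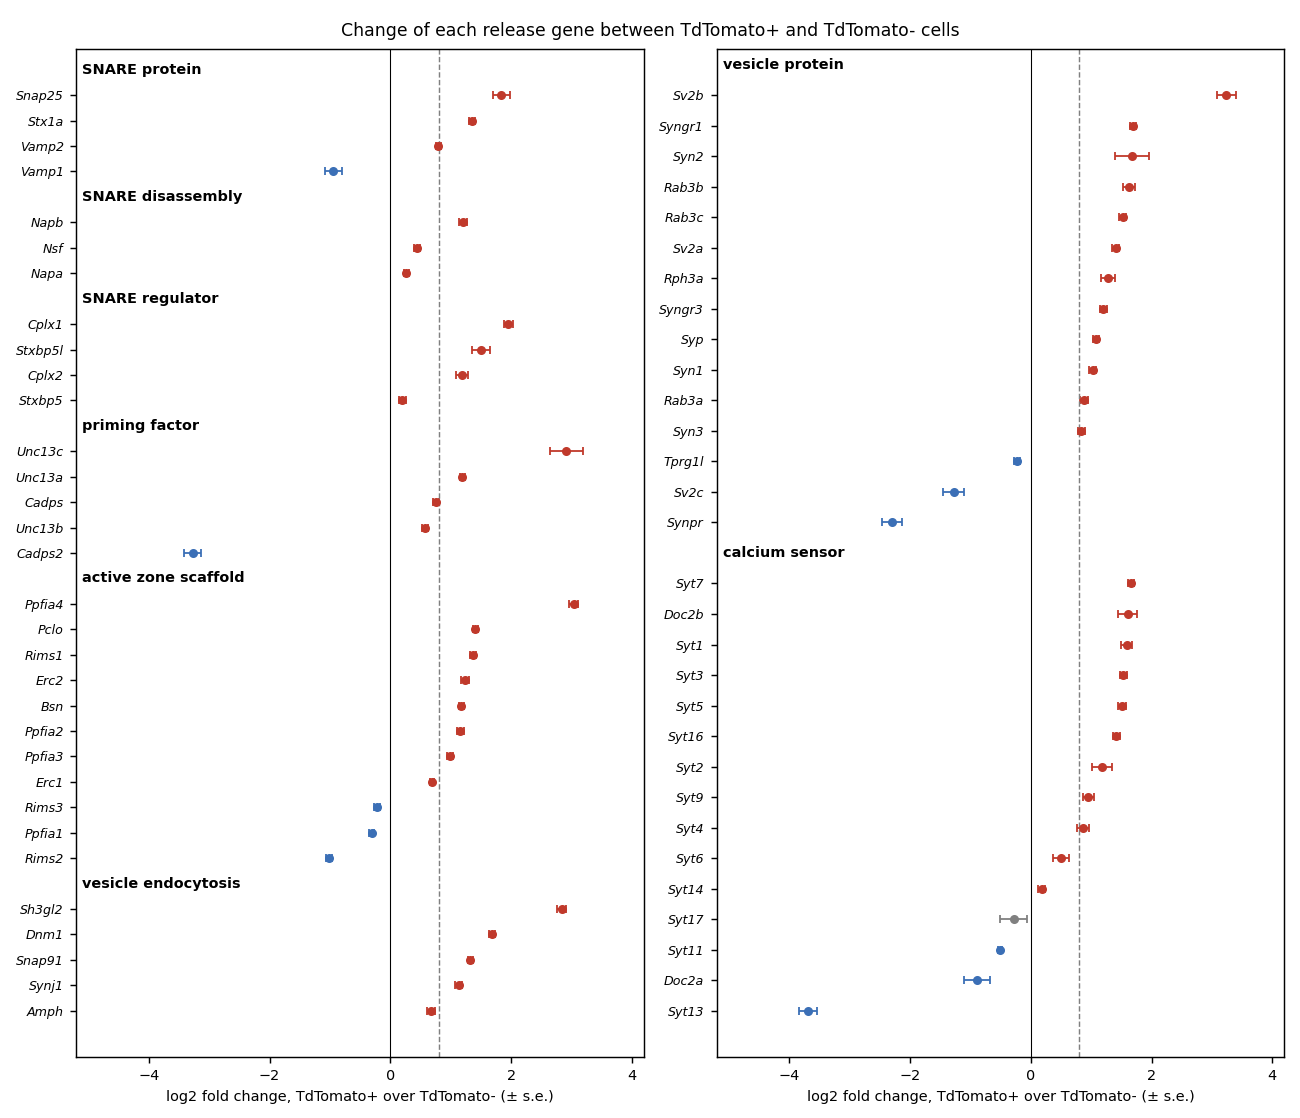
Log2 fold change of each of the 62 release genes between TdTomato+ and TdTomato- cells, grouped by role, with bars of 1 standard error. Red points are genes significantly higher in TdTomato+ cells, blue points significantly lower and the grey point is Syt17, and the dashed line marks the median of 18 pan-neuronal genes (0.80). Each group except SNARE disassembly, SNARE regulators and endocytosis holds at least 1 blue point.

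The core SNARE proteins were 3 of 4 higher. Levels of single genes are given from here on as CPM per kilobase (kb) of exon, in the order of mice 2 to 6. Orders of level and shares among genes thus depend on the merged exon length of each gene. Snap25 encodes a target membrane SNARE (chr2:136713453-136782428, GRCm38) and gave the largest increase of the class. It measured 9.44, 7.99, 8.95, 7.09 and 7.17 CPM per kb in TdTomato- cells and 36.1, 23.4, 21.6, 33.9 and 32.6 CPM per kb in TdTomato+ cells (log2FC 1.84, s.e. 0.14, adjusted p = 1.97e-06). Every TdTomato+ value exceeded every TdTomato- value, and among TdTomato+ cells mice 3 and 4 were the lowest. Vamp2, which encodes synaptobrevin 2 (chr11:69088490-69092384), had the highest level of the class. It measured 46.6, 42.4, 47.7, 46.7 and 50.1 CPM per kb in TdTomato- cells and 85.0, 77.0, 79.3, 82.5 and 80.0 CPM per kb in TdTomato+ cells (log2FC 0.79, s.e. 0.04, adjusted p = 2.23e-07), again without overlap. Stx1a, the syntaxin of the complex, went from 11.6 ± 1.34 to 29.6 ± 3.52 CPM per kb (mean ± SD, n = 5; log2FC 1.35). Vamp1, a paralogue of Vamp2 that is prominent in hindbrain and spinal cord, went the other way. It measured 0.761, 0.585, 0.552, 0.655 and 0.504 CPM per kb in TdTomato- cells and 0.281, 0.320, 0.317, 0.428 and 0.244 CPM per kb in TdTomato+ cells (log2FC -0.95, s.e. 0.14, adjusted p = 0.000208). Its populations did not overlap, but the gene was scarce in both, at 1.30% ± 0.236 of the summed Vamp1 and Vamp2 level in TdTomato- cells and 0.392% ± 0.0828 in TdTomato+ cells (SD, n = 5).

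The 3 factors that take spent SNARE complexes apart rose, with a median log2FC of 0.45, the lowest among the 8 roles. Nsf, the ATPase that unwinds the complex, went from 7.57 ± 0.736 to 10.3 ± 1.30 CPM per kb (log2FC 0.45, s.e. 0.05, adjusted p = 2.25e-05). Napa, which encodes the alpha-SNAP adaptor found in most tissues, had the highest level of the 3 genes, at 23.1, 20.9, 21.0, 22.2 and 23.3 CPM per kb in TdTomato- cells and 27.998, 24.9, 26.0, 25.6 and 28.04 CPM per kb in TdTomato+ cells (log2FC 0.26, s.e. 0.04, adjusted p = 0.000215). The 2 sets of values lay close together without overlapping. Napb encodes the brain-enriched beta-SNAP and had the largest increase of the class. It measured 5.98, 5.70, 7.02, 5.61 and 5.41 CPM per kb in TdTomato- cells and 13.4, 14.6, 13.9, 14.3 and 12.2 CPM per kb in TdTomato+ cells (log2FC 1.20, s.e. 0.06, adjusted p = 1.66e-07). Napb made up 21.2% ± 2.32 of the pair in TdTomato- cells and 34.0% ± 2.73 in TdTomato+ cells.

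All 4 SNARE regulators rose. Cplx1, encoding complexin 1 (chr5:108518554-108550024), increased most of them. It measured 21.0, 15.5, 16.2, 22.1 and 22.9 CPM per kb in TdTomato- cells and 76.0, 69.7, 71.1, 75.7 and 82.2 CPM per kb in TdTomato+ cells (log2FC 1.95, s.e. 0.07, adjusted p = 1.63e-08). Cplx2, encoding complexin 2 (chr13:54371349-54383917), was the more abundant of the pair, with 44.0, 49.4, 49.6, 50.8 and 54.2 CPM per kb in TdTomato- cells and 93.3, 140.4, 142, 102 and 96.5 CPM per kb in TdTomato+ cells (log2FC 1.19, s.e. 0.10, adjusted p = 4.95e-06). Neither gene overlapped between populations, and mice 3 and 4 were the highest for Cplx2 in TdTomato+ cells and the lowest for Cplx1. The tomosyns, which compete with synaptobrevin for syntaxin, rose by very different amounts, Stxbp5 from 2.49 ± 0.186 to 2.86 ± 0.0422 CPM per kb (log2FC 0.20, adjusted p = 0.00953) and Stxbp5l from 0.352 ± 0.0692 to 0.996 ± 0.165 CPM per kb (log2FC 1.496, adjusted p = 1.29e-05).

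Among the priming factors 4 of 5 rose and Cadps2 fell. Unc13a encodes Munc13-1, the main priming factor of cortical glutamatergic synapses, and had the highest level of the class. Its level was 15.7, 11.1, 11.9, 10.7 and 12.3 CPM per kb in TdTomato- cells and 32.4, 25.8, 28.5, 25.5 and 28.4 CPM per kb in TdTomato+ cells (log2FC 1.19, s.e. 0.04, adjusted p = 1.83e-08). Unc13b, encoding Munc13-2, rose less, from 4.77 ± 0.341 to 7.09 ± 0.653 CPM per kb (log2FC 0.57). Unc13c, encoding the Munc13-3 that is best known from the cerebellum (chr9:73479422-73968966), gave the largest increase of the class, at a low level. It measured 0.107, 0.177, 0.292, 0.131 and 0.0753 CPM per kb in TdTomato- cells and 0.521, 2.45, 2.94, 0.727 and 0.231 CPM per kb in TdTomato+ cells (log2FC 2.91, s.e. 0.27, adjusted p = 9.92e-06). The rise was seen within each of the 5 mice, but the populations overlapped, since mouse 6 in TdTomato+ cells lay below mouse 4 in TdTomato- cells. These values rest on 19 to 64 reads in a TdTomato- library and 45 to 586 reads in a TdTomato+ library.

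The CAPS priming proteins, which act chiefly on dense-core vesicles, split. Cadps rose from 7.30 ± 0.338 to 12.4 ± 0.324 CPM per kb (log2FC 0.76). Cadps2 (chr6:23262773-23839421) measured 0.879, 1.03, 0.838, 0.808 and 0.823 CPM per kb in TdTomato- cells and 0.118, 0.109, 0.0785, 0.0818 and 0.0661 CPM per kb in TdTomato+ cells (log2FC -3.27, s.e. 0.14, adjusted p = 6.15e-08). The ranges were far apart, and the TdTomato+ libraries held 14 to 25 reads of the gene each, against 195 to 286 in the TdTomato- libraries. Cadps2 thus held 10.7% ± 1.22 of the CAPS level in TdTomato- cells and 0.728% ± 0.169 in TdTomato+ cells.

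**Figure D2:**
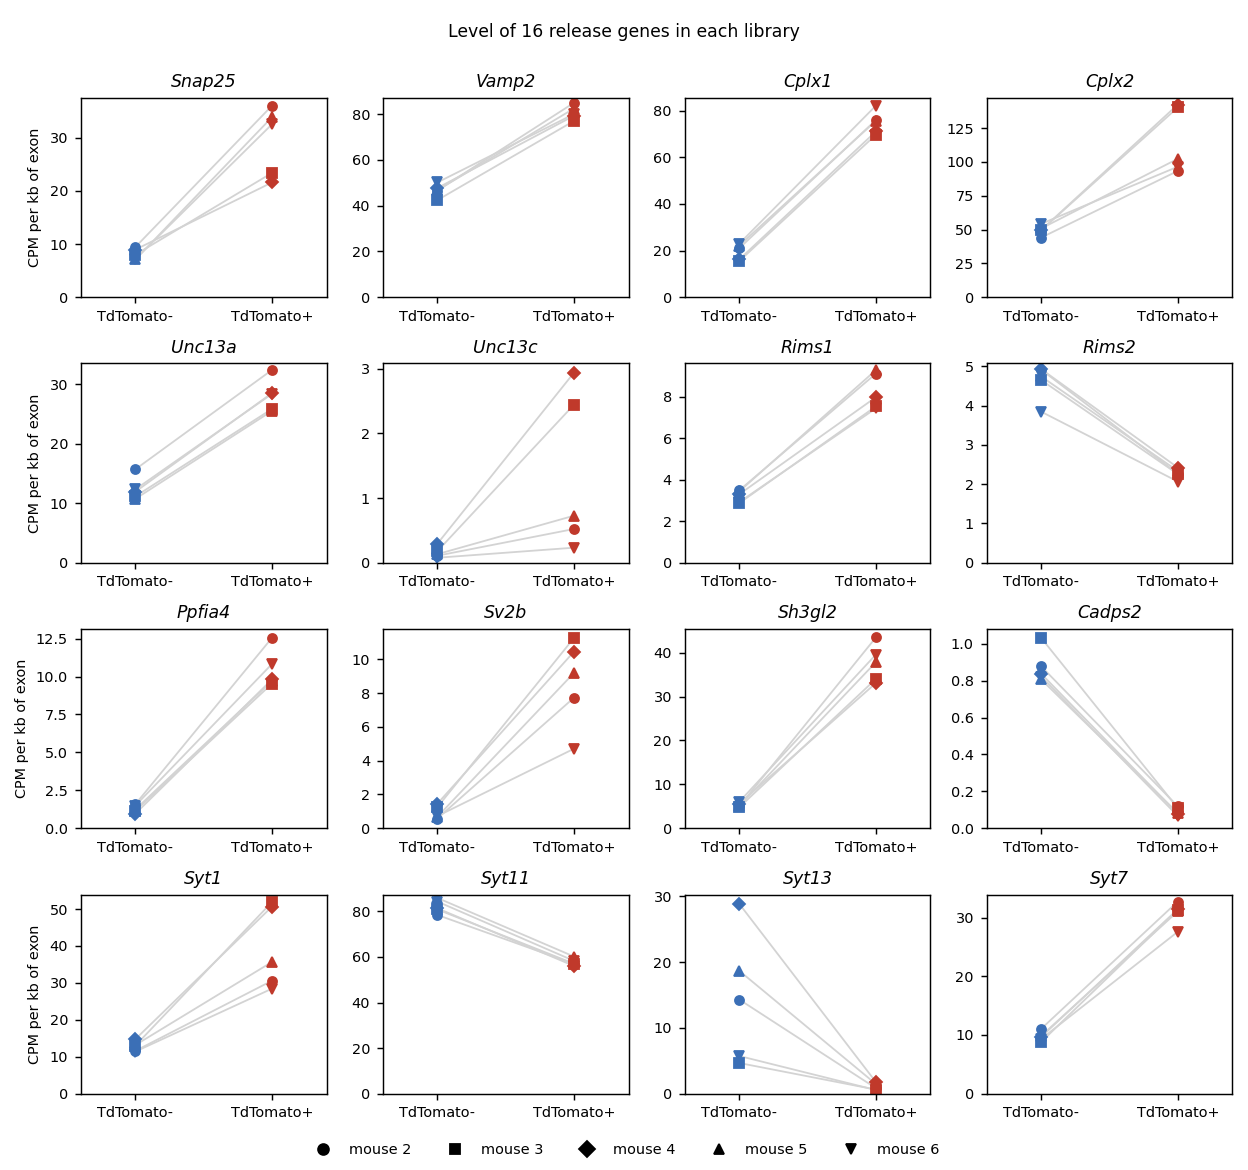
Level in CPM per kb of exon (linear axis from 0) of 16 release genes in each TdTomato- (blue) and TdTomato+ (red) library, where a symbol marks a mouse and a grey line joins both populations of that mouse. Rims2, Cadps2, Syt11 and Syt13 fall in each mouse and the other 12 genes rise, and Unc13c is the single gene plotted whose populations overlap.

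At the active zone 8 of 11 scaffold genes rose. Bsn, encoding the giant scaffold Bassoon, had the highest level, with 13.9, 13.3, 13.3, 13.6 and 12.4 CPM per kb in TdTomato- cells and 29.3, 31.3, 32.1, 29.3 and 28.6 CPM per kb in TdTomato+ cells (log2FC 1.18, s.e. 0.04, adjusted p = 1.85e-08). Its partner Piccolo (Pclo) moved alongside, from 4.90 ± 0.295 to 13.0 ± 0.658 CPM per kb (log2FC 1.41). The 2 ELKS genes, whose proteins bind RIM and Bassoon, rose as well, Erc1 with a log2FC of 0.69 and the neuronal Erc2 with 1.23. Per kb of exon, Erc2 went from 43.0% ± 2.03 to 52.4% ± 1.46 of the pair. Without division by exon length Erc1 stayed above Erc2, at 277 ± 9.63 and 183 ± 9.85 CPM in TdTomato+ cells.

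The RIM genes moved in opposite directions. RIM proteins tether calcium channels and Munc13 at the release site. Rims1 (chr1:22286251-22805994) measured 3.48, 2.87, 3.30, 3.43 and 2.92 CPM per kb in TdTomato- cells and 9.11, 7.54, 7.98, 9.28 and 7.44 CPM per kb in TdTomato+ cells (log2FC 1.37, s.e. 0.05, adjusted p = 1.33e-08). Rims2 (chr15:39198261-39684372) measured 4.92, 4.65, 4.93, 4.74 and 3.85 CPM per kb in TdTomato- cells and 2.26, 2.26, 2.42, 2.34 and 2.07 CPM per kb in TdTomato+ cells (log2FC -1.02, s.e. 0.05, adjusted p = 1.15e-07). Neither overlapped between populations, and the order of the paralogues turned over, with Rims2 above Rims1 in every TdTomato- library and Rims1 above Rims2 in every TdTomato+ library. Rims3, which encodes a short RIM that keeps little more than the end of the longer forms, measured 4.08, 3.75, 3.93, 3.62 and 3.49 CPM per kb in TdTomato- cells and 3.56, 2.95, 3.54, 3.38 and 2.80 CPM per kb in TdTomato+ cells (log2FC -0.22, s.e. 0.06, adjusted p = 0.00519), a small fall with overlapping libraries. Rims1 went from 27.6% ± 1.41 to 59.9% ± 1.83 of the summed level of these 3 genes, Rims2 from 39.8% ± 1.44 to 16.5% ± 1.12 and Rims3 from 32.6% ± 1.24 to 23.5% ± 1.17. Rims4, which is not a member, went from 3.62 ± 0.398 to 7.77 ± 0.941 CPM per kb. With Rims4 in the sum Rims1 went from 21.1% ± 1.35 to 38.3% ± 1.07, Rims2 from 30.3% ± 1.02 to 10.6% ± 0.825, Rims3 from 24.9% ± 0.949 to 15.1% ± 1.19 and Rims4 from 23.8% ± 1.42 to 36.0% ± 2.02.

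The liprin-alpha genes, whose proteins recruit scaffold and motor proteins to the release site, also differed among themselves. Ppfia4 (chr1:134296783-134332928) had the largest increase at the active zone. It measured 1.58, 1.15, 0.958, 1.24 and 1.49 CPM per kb in TdTomato- cells and 12.6, 9.54, 9.81, 9.72 and 10.8 CPM per kb in TdTomato+ cells (log2FC 3.04, s.e. 0.07, adjusted p = 2.76e-09). No TdTomato- library came near a TdTomato+ library. Ppfia2 (log2FC 1.16) and Ppfia3 (log2FC 0.99) rose by about as much as the median member. Ppfia1, the paralogue with the widest expression across tissues, fell, at 7.75, 7.55, 7.38, 7.11 and 7.32 CPM per kb in TdTomato- cells and 6.25, 5.84, 6.04, 5.57 and 6.22 CPM per kb in TdTomato+ cells (log2FC -0.31, s.e. 0.04, adjusted p = 0.0001). Its populations did not overlap. Within the 4 liprin-alpha genes Ppfia4 grew from 5.51% ± 0.990 to 22.3% ± 1.45 and Ppfia1 shrank from 31.9% ± 0.899 to 12.8% ± 0.777, while Ppfia3 stood at 36.9% ± 1.14 and 36.4% ± 0.852.

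Of 15 vesicle proteins 12 rose and 3 fell. Rab3a encodes the small GTPase that marks vesicles ready to dock (chr8:70754679-70758677) and had the highest level of the class and, by its mean, of all 62 members in TdTomato+ cells, where Cplx2 was within 1 SD of it. It measured 53.9, 62.1, 69.0, 66.5 and 71.9 CPM per kb in TdTomato- cells and 119.7, 117.5, 122, 114 and 119 CPM per kb in TdTomato+ cells (log2FC 0.88, s.e. 0.06, adjusted p = 1.29e-06). Its paralogues rose more on the log2 scale, Rab3b by 1.63 and Rab3c by 1.53, and the Rab3 effector rabphilin (Rph3a) by 1.28. As a share of these 3 Rab3 genes, Rab3a went from 80.2% ± 2.20 to 71.9% ± 1.72 and Rab3c from 16.3% ± 2.15 to 22.7% ± 1.64. With Rab3d, which is not a member and went from 9.06 ± 1.25 to 19.8 ± 1.28 CPM per kb, in the sum, Rab3a went from 72.1% ± 1.48 to 64.2% ± 1.54 and Rab3c from 14.7% ± 2.04 to 20.3% ± 1.45.

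The synapsins, which hold vesicles in the reserve pool, all rose. Syn1 went from 34.6 ± 2.88 to 70.5 ± 6.76 CPM per kb (log2FC 1.02) and Syn3 from 2.03 ± 0.200 to 3.63 ± 0.340 CPM per kb (log2FC 0.84). Syn2 was far less even between mice, with 4.10, 5.23, 5.21, 5.07 and 4.69 CPM per kb in TdTomato- cells and 10.1, 29.7, 31.5, 12.8 and 6.96 CPM per kb in TdTomato+ cells (log2FC 1.68, s.e. 0.28, adjusted p = 0.000424). Its TdTomato- libraries lay close together and below every TdTomato+ library, and in TdTomato+ cells mice 3 and 4 were clearly above mice 2, 5 and 6.

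The membrane proteins of the vesicle divided by paralogue. Synaptophysin (Syp) went from 18.9 ± 1.83 to 40.0 ± 2.26 CPM per kb (log2FC 1.08), Syngr1 rose by 1.69 and Syngr3 by 1.20 on the log2 scale, the last 2 being neuronal synaptogyrins. Synpr, encoding the synaptophysin relative synaptoporin (chr14:13284780-13616340), measured 0.725, 0.688, 0.811, 0.835 and 0.823 CPM per kb in TdTomato- cells and 0.1249, 0.133, 0.164, 0.258 and 0.120 CPM per kb in TdTomato+ cells (log2FC -2.30, s.e. 0.17, adjusted p = 1.78e-06), and the ranges lay well apart. Tprg1l, encoding the vesicle protein Mover, measured 26.7, 27.4, 29.6, 29.1 and 31.1 CPM per kb in TdTomato- cells and 25.4, 22.6, 24.2, 25.5 and 25.5 CPM per kb in TdTomato+ cells (log2FC -0.22, s.e. 0.05, adjusted p = 0.00235). Its fall was small, and each TdTomato+ value lay below each TdTomato- value.

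The 3 SV2 genes encode vesicle glycoproteins that serve as botulinum toxin receptors, and each had its own course. Sv2a, the common form, went from 20.4 ± 2.56 to 54.2 ± 4.92 CPM per kb (log2FC 1.41). Sv2b (chr7:75114894-75309262) gave the largest estimated increase of all 62 members, at 0.569, 1.24, 1.44, 0.671 and 0.711 CPM per kb in TdTomato- cells and 7.72, 11.3, 10.5, 9.19 and 4.70 CPM per kb in TdTomato+ cells (log2FC 3.24, s.e. 0.16, adjusted p = 1.12e-07). Mouse 6 was the lowest in TdTomato+ cells and still above each TdTomato- library. The estimate for Ppfia4 came close (log2FC 3.04, s.e. 0.07). Sv2c, a form known from basal ganglia, measured 0.762, 0.627, 0.748, 0.788 and 0.614 CPM per kb in TdTomato- cells and 0.252, 0.317, 0.460, 0.296 and 0.172 CPM per kb in TdTomato+ cells (log2FC -1.28, s.e. 0.17, adjusted p = 0.000114), without overlap. Sv2b therefore rose from 4.13% ± 1.39 to 13.51% ± 2.92 of the summed SV2 level and Sv2c fell from 3.24% ± 0.459 to 0.466% ± 0.121.

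All 5 genes for vesicle endocytosis rose. Dnm1, encoding the neuronal dynamin that pinches off vesicles, had the highest level in TdTomato+ cells. It measured 15.0, 12.6, 15.4, 11.5 and 11.2 CPM per kb in TdTomato- cells and 45.3, 42.1, 45.7, 38.8 and 38.3 CPM per kb in TdTomato+ cells (log2FC 1.69, s.e. 0.05, adjusted p = 4.9e-09). Sh3gl2, encoding endophilin A1 (chr4:85205126-85639195; its RefSeq promoter is printed above), had the largest increase of the class. Its level was 4.96, 4.74, 5.55, 5.06 and 5.99 CPM per kb in TdTomato- cells and 43.5, 34.0, 33.1, 37.8 and 39.6 CPM per kb in TdTomato+ cells (log2FC 2.83, s.e. 0.08, adjusted p = 4.43e-09). Both genes were without overlap between populations. The clathrin adaptor Snap91 (log2FC 1.33), the lipid phosphatase Synj1 (log2FC 1.13) and amphiphysin, Amph (log2FC 0.67), rose less.

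**Figure D3:**
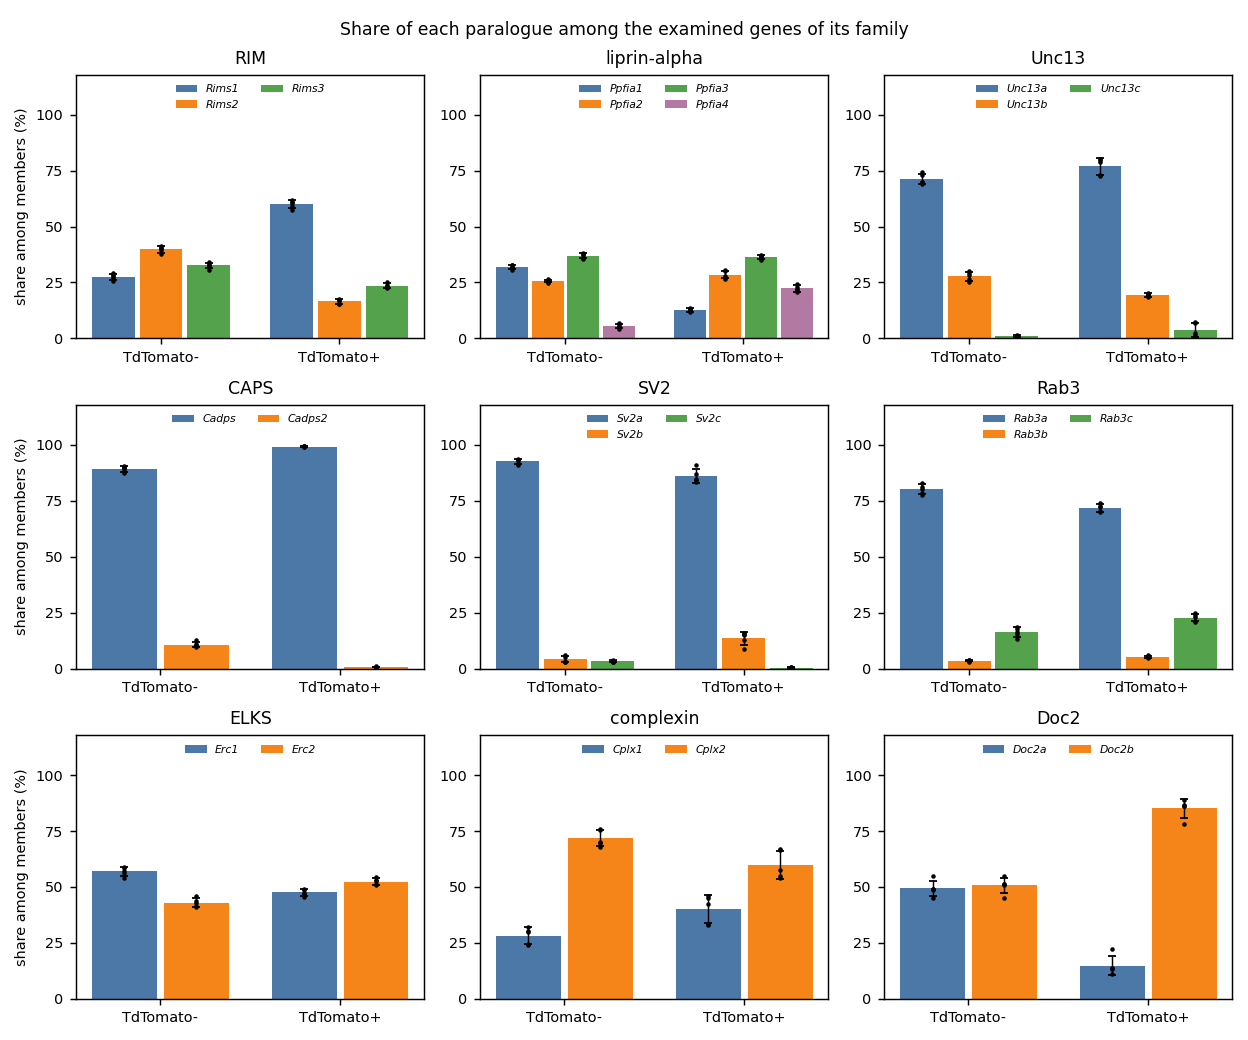
Share of each paralogue in the summed level (CPM per kb of exon) of the examined genes of its family, in percent, for 9 families. Paralogues that are not members, such as Rims4, Rab3d and Doc2g, are left out of the sums. Bars are means of 5 libraries, error bars are 1 SD and dots are single libraries. The RIM panel changes from Rims2 to Rims1 as the leading gene, the Doc2 panel from near-equal shares to Doc2b at 85.1%, and Ppfia4, Sv2b and Cplx1 gain share in TdTomato+ cells.

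Changes of paralogue share, always among the members of a family, were examined for 52 genes in 17 families. The share moved the same way in all 5 mice for 47 of them. With 5 pairs the exact two-sided sign-flip test cannot give a p below 0.0625, so no share could reach 0.05, and the lowest value after Benjamini-Hochberg adjustment over the 52 shares was 0.0692. Shares within a family add up to the whole, so that in a pair 1 gene mirrors the other. The exceptions were Ppfia3 (exact p = 0.438), Syn1 (exact p = 0.375), Syn2 (exact p = 0.188) and Syt6 (exact p = 0.875), and Syt4, whose share rose in 4 of 5 mice. Close paralogues that are not members were added for 7 of the families (Rims4, Rab3d, Unc13d, Syngr2, Vamp3, Sypl, Sypl2 and Doc2g), while more distant relatives in the table, such as Vamp4, Vamp8 and Napg, were not added. With the added genes in the sums, an alternative chosen after seeing the data, no mean share of the 17 members in those families changed direction. Syngr3, however, no longer moved one way in all mice. Its mean share went from 54.5% ± 4.80 to 53.1% ± 2.06, while its share was higher in TdTomato+ cells in 3 of 5 mice.

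The synaptotagmins were 10 of 13 higher and 2 lower, and the other 49 members 40 higher and 9 lower. Their median log2FC was 0.95, that of the other members 1.18. In TdTomato- cells Syt11 led the family with 42.9% ± 3.04 of the summed level, followed by Syt4 with 16.02% ± 1.62. In TdTomato+ cells the lead was shared between Syt11 (20.5% ± 1.41), Syt4 (19.9% ± 3.00) and Syt5 (17.8% ± 2.30), whose neighbouring means differed by less than 1 SD, with Syt1 (13.9% ± 3.50) and Syt7 (10.9% ± 0.277) next. This order depends on exon length. Without division by it Syt1 had the highest mean in TdTomato+ cells (329 ± 92.7 CPM), then Syt11 (300 ± 8.29 CPM), and Syt5 was lower (119 ± 13.1 CPM).

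The calcium-binding synaptotagmins that trigger fast release rose. Syt1, the fast sensor of most forebrain synapses (chr10:108497650-109010982), measured 11.6, 13.0, 14.8, 13.2 and 11.4 CPM per kb in TdTomato- cells and 30.6, 51.9, 50.7, 35.7 and 28.4 CPM per kb in TdTomato+ cells (log2FC 1.59, s.e. 0.10, adjusted p = 5.06e-07). It did not overlap, and in TdTomato+ cells mice 3 and 4 were the highest. Syt2, which takes the same role mainly in hindbrain, was scarce, at 0.261, 0.407, 0.425, 0.254 and 0.315 CPM per kb in TdTomato- cells and 0.742, 0.715, 0.734, 0.842 and 0.698 CPM per kb in TdTomato+ cells (log2FC 1.18, s.e. 0.17, adjusted p = 0.000156). Syt9, also a fast sensor, went from 3.05 ± 0.208 to 5.92 ± 0.654 CPM per kb (log2FC 0.95).

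The high-affinity and slower sensors rose too. Syt7, which serves asynchronous release (chr19:10389090-10453180), had the largest estimated increase among the calcium sensors. Doc2b (log2FC 1.60) and Syt1 (log2FC 1.59) each differed from it by less than their own standard error. Syt7 measured 11.04, 8.81, 9.67, 9.84 and 9.31 CPM per kb in TdTomato- cells and 32.7, 31.3, 31.4, 31.1 and 27.6 CPM per kb in TdTomato+ cells (log2FC 1.66, s.e. 0.05, adjusted p = 6.54e-09). The increase was even across mice, with no overlap. Syt3 went from 4.54 ± 0.374 to 13.2 ± 0.946 CPM per kb (log2FC 1.54) and Syt5 from 17.6 ± 0.926 to 50.2 ± 5.52 CPM per kb (log2FC 1.51), both without overlap. Syt6, a close relative of Syt3, was higher in 4 of 5 mice with overlapping populations, at 11.6, 6.70, 6.59, 9.52 and 8.99 CPM per kb in TdTomato- cells and 19.0, 8.18, 6.33, 13.7 and 17.9 CPM per kb in TdTomato+ cells (log2FC 0.50, s.e. 0.13, adjusted p = 0.00567). Mice 3 and 4 were the lowest for this gene in both populations, and the call was lost when the pairing was ignored (adjusted p = 0.0796).

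Synaptotagmins known to bind calcium weakly or not at all moved in both directions. Syt4 rose from 30.8 ± 3.53 to 56.4 ± 10.8 CPM per kb (log2FC 0.86, s.e. 0.10, adjusted p = 4.67e-05). Syt11, the nearest relative of Syt4 (chr3:88744700-88775164), was the most abundant member of all 62 in TdTomato- cells and fell. It measured 78.5, 80.9, 81.4, 85.9 and 84.3 CPM per kb in TdTomato- cells and 57.0, 57.1, 56.1, 60.2 and 58.3 CPM per kb in TdTomato+ cells (log2FC -0.51, s.e. 0.03, adjusted p = 9.87e-07), 2 tight sets of values that did not overlap. Syt16 rose from 2.99 ± 0.173 to 8.003 ± 0.730 CPM per kb (log2FC 1.42), while Syt14 moved little, at 5.01, 4.92, 4.82, 4.25 and 4.04 CPM per kb in TdTomato- cells and 5.30, 5.39, 4.99, 5.58 and 4.79 CPM per kb in TdTomato+ cells (log2FC 0.18, s.e. 0.06, adjusted p = 0.0192). Without mouse 5 the Syt14 call was lost (log2FC 0.13, adjusted p = 0.0655).

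Syt13 gave the largest decrease of all 62 members (chr2:92915098-92956058). It measured 14.3, 4.66, 28.8, 18.7 and 5.73 CPM per kb in TdTomato- cells and 0.844, 0.623, 1.77, 1.47 and 0.553 CPM per kb in TdTomato+ cells (log2FC -3.69, s.e. 0.15, adjusted p = 3.38e-08). TdTomato- values varied widely between mice, with mouse 4 the highest and mice 3 and 6 the lowest in that population, yet each was above each TdTomato+ value. Tcf7l2, a transcription factor abundant in embryonic thalamus that was looked up after the Syt13 values had been seen, measured 116, 45.3, 195, 134 and 39.9 CPM in the same TdTomato- libraries and 7.12, 1.69, 27.0, 11.2 and 1.76 CPM in TdTomato+ libraries, with mouse 4 highest and mice 3 and 6 lowest in both populations. Ntng1, looked up in the same way, measured 10.1, 4.87, 16.6, 13.51 and 4.39 CPM in TdTomato- libraries and 5.89, 2.99, 2.78, 6.13 and 2.395 CPM in TdTomato+ libraries, with mouse 4 highest and mice 3 and 6 lowest in the former and mouse 4 among the lowest in the latter. The part of either gene in the Syt13 result was not tested. Syt17, which belongs to the family by sequence but lacks a membrane anchor, was the member without a call, at 0.406, 0.505, 0.455, 0.510 and 0.462 CPM per kb in TdTomato- cells and 0.566, 0.283, 0.280, 0.535 and 0.313 CPM per kb in TdTomato+ cells (log2FC -0.28, s.e. 0.22, adjusted p = 0.255). It was scarce, with 54 to 76 reads in a TdTomato- library and 33 to 65 in a TdTomato+ library.

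The Doc2 proteins, soluble calcium sensors linked to spontaneous release, moved in opposite directions. Doc2b rose from 1.47 ± 0.290 to 4.51 ± 1.07 CPM per kb (log2FC 1.60, s.e. 0.16, adjusted p = 1.62e-05). Doc2a measured 1.16, 1.39, 1.60, 1.81 and 1.19 CPM per kb in TdTomato- cells and 0.890, 0.480, 0.630, 0.884 and 1.00 CPM per kb in TdTomato+ cells (log2FC -0.89, s.e. 0.21, adjusted p = 0.00366). Doc2b held 50.7% ± 3.46 of the pair in TdTomato- cells and 85.1% ± 4.15 in TdTomato+ cells. With Doc2g, which is not a member, in the sum, Doc2b went from 39.7% ± 5.85 to 56.8% ± 4.49. Of the exonic length of Doc2a 39.4% overlaps the opposite-strand gene Ino80e. The same measure was 24.5% for Ppfia2, 16.8% for Syp, 14.5% for Syt4, 14.1% for Syn3 and 11.8% for Erc1, and 9% or less for the remaining members. The libraries are described as stranded, but the strand setting of the counts is not given in the sources used here, so that reads of such a pair may not be separable.

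Members differed in how even they were between mice. The median coefficient of variation over the 62 members was 9.13% in TdTomato+ and 9.67% in TdTomato- libraries. It exceeded 20% for 15 members in TdTomato+ and for 5 in TdTomato- libraries. Of the 15, Cadps2, Synpr, Doc2a, Syt17, Sv2c, Unc13c, Syt13 and Vamp1 had fewer than 60 reads in some library (14 to 25 for Cadps2 in TdTomato+ libraries), so that counting error adds to their spread. Unc13c and Syn2 varied most in TdTomato+ cells, followed by Syt13 and Syt6.

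**Figure D4:**
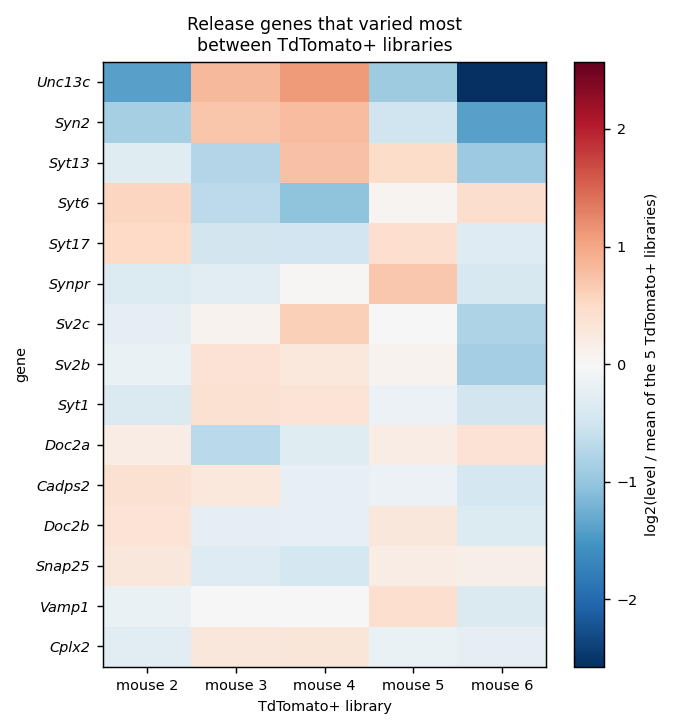
The 15 release genes with a coefficient of variation over 20% among TdTomato+ libraries, shown as log2 of each library's level over the mean of the 5 TdTomato+ libraries. Unc13c and Syn2 are above their mean in mice 3 and 4 and below it in mice 2, 5 and 6, Syt6 and Snap25 are below their mean in mice 3 and 4, and Sv2b is lowest in mouse 6.

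The members were set beside a list of genes taken as pan-neuronal. It is not an even baseline, since the paper uses its gene Dcx as an immature neuron marker and Rbfox3 as a mature one. The 18 pan-neuronal genes had a median log2FC of 0.80, between -0.47 for Elavl2 and 1.80 for Mapt. Of the 62 members 40 were above that median and 48 were within that range. Above it were Snap25, Cplx1, Sh3gl2, Unc13c, Ppfia4 and Sv2b, and below it were Syt11, Doc2a, Vamp1, Rims2, Sv2c, Synpr, Cadps2 and Syt13. This is a description of fold changes, and no test was made of the difference between the lists.

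A list of further genes of the release pathway, drawn up by role, gave a smaller median change. Among 91 such genes with counts, 63 were higher, 18 were lower and 10 were not called, with a median log2FC of 0.39, beside 37.9% of all genes higher and 39.4% lower. By role, 13 of 23 further membrane fusion genes rose and 8 fell, 10 of 17 priming and active zone genes rose and 3 fell, and 18 of 24 vesicle genes rose and 6 fell. A further 3 of 6 calcium sensor genes rose with none lower, and 19 of 21 endocytosis genes rose and 1 fell. The widely expressed vesicle SNARE genes Vamp3 (log2FC -1.25) and Vamp8 (log2FC -3.12) fell. Rimbp2, encoding a RIM-binding protein, rose by 3.44 and the beta-synuclein gene Sncb by 3.27 on the log2 scale. The vesicle transporters moved in both directions, with the glutamate transporter gene Slc17a7 higher (log2FC 2.69) and its paralogue Slc17a6 lower (log2FC -2.54), and the GABA transporter Slc32a1 (log2FC -3.95) and the monoamine transporter Slc18a2 (log2FC -5.22) lower. Syngr2, the synaptogyrin of non-neuronal cells, fell (log2FC -5.14) where the members Syngr1 and Syngr3 rose.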

How the data were processed

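Sorted TdTomato+ and TdTomato- cells of 5 mice gave 10 mRNA-seq libraries, grouped by the sample labels. The authors deposited raw read counts per gene for 14300 genes by Ensembl identifier, and per the submitters' processing notes STAR 2.4.2a and edgeR 3.28.0 were used with GRCm38. The annotation release, the strand column and how the 14300 genes were chosen are not given in the sources used here, and the labels and the paper's methods name different library kits and sequencers. The count table holds no column of another series. Symbols came from GENCODE M21, with 29 genes left unnamed, and Tprg1l was matched by its RefSeq synonym.

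The counts were fitted here with edgeR 4.0.16 and limma 3.58.1 in R 4.3.3: TMM scaling, filterByExpr, glmQLFit and glmQLFTest with the mouse as a block, and Benjamini-Hochberg adjustment over all genes. TMM, the quasi-likelihood test and pairing follow the study's methods. Calls used an adjusted p of 0.05 and, as a further rule, an absolute log2 fold change of 2. Fitted fold changes used a prior count of 0.125. CPM were scaled by TMM and divided by the kilobases of merged exons where levels of genes are compared. The depth of 23429034 to 27286180 reads left at least 14 reads of every member in every library. Libraries of a population differed by more than counting noise (chi-square per degree of freedom 4.46 to 32.0). Same-numbered libraries deviated together (r = 0.186 to 0.316 over genes for all 5 mice, and -0.312 to 0.212 between different numbers), which with the titles gave the pairing.

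The members and gene lists were chosen with earlier results of these data known. Values per library were given for the highest, most increased and most decreased gene of each class and for each member that was lower or passed the fold rule, and other members were named with their direction. Beyond that rule, values per library were also given for Rims1, Syn2, Syt1, Syt2, Syt6, Syt14 and Syt17, chosen after their values were seen. Alternatives were RLE and upper-quartile scaling, DESeq2 1.42.0, a fit without filtering, a floor above 1 CPM for 5 or more libraries, an unblocked fit, a prior count of 2 and leaving out each mouse. filterByExpr removed no gene, so the fit without filtering repeats the reported values. The tamoxifen dose was 6 mg by oral gavage at 13.5 dpc, and Cre- littermates set the sorting gate.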

Additional observations from a re-analysis of the deposited data

Results flagged for a closer look

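In 2 of 124 sets of 5 libraries (62 genes in each population) 1 library lay apart from the other 4 by Dixon's ratio of gap to range, with a critical value of 0.71. Chance alone would give about 6.2 such sets. Rims2 in TdTomato- cells was lowest in mouse 6, at 40.0 CPM, with the other libraries between 48.3 and 51.2 CPM (ratio 0.743). Ppfia2 in TdTomato- cells was lowest in mouse 5, at 61.3 CPM, with the other libraries between 65.6 and 66.5 CPM (ratio 0.826). Both libraries stayed on the TdTomato- side of every TdTomato+ value of the gene.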

How the results depend on the processing

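Over 12 alternatives, of which the fit without a filter repeats the reported values because the filter removed no gene, no member changed direction. Between 49 and 50 members were higher and 11 lower in each, and the number of members past the log2 fold change of 2 was 4 higher and 3 lower, except without mouse 5, where Cplx1 made it 5 higher. The calls lost were that of Syt6 without the replicate block (log2FC 0.59, adjusted p = 0.0796) and that of Syt14 without replicate 5 (0.13, adjusted p = 0.0655). The block changed no other member's call. Over all genes, the number higher ranged from 5030 to 5468 and the number lower from 5185 to 5793. The fold changes that moved most were Syn2, between 1.44 and 1.95 when a mouse was left out, and Unc13c, between 2.59 and 3.10, and both stayed called. Precision is limited by 5 mice and, for the 9 members with fewer than 60 reads in some library (Cadps2, Unc13c, Synpr, Doc2a, Syt17, Sv2c, Syt13, Syt2 and Vamp1), by low counts, the lowest being 14 reads of Cadps2 in a TdTomato+ library. Syt17, the member without a call, is among them. Intervals from counts would cover counting error only. That the 2 populations differ in cell composition applies to every result and was not tested.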
